A study of Mus musculus with 30 samples.

Results

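RNA of 10 subunits of the BAF chromatin remodelling complex was followed through 30 libraries of mouse embryonic stem cells in which the transcription factor fusion GRHL2-ERT was switched on in the presence or absence of a histone methyltransferase. The members were the rows of the deposited table with the symbols Smarca4, Smarcb1, Smarcc1, Smarce1, Smarcd1, Smarcd2, Smarcd3, Arid1a, Arid1b and Dpf2. All 10 were present among the table's 12428 genes, and all 10 passed the filter on low values. BAF complexes, the mammalian SWI/SNF family, use the energy of ATP to slide or eject nucleosomes, which opens promoters and enhancers to transcription factors. Each complex is built around 1 ATPase, with a shared core and with positions that are filled by 1 of several related proteins, so the choice among related genes sets which complex forms. Mouse embryonic stem cells are known for a version of the complex built on Smarca4, Smarcc1 and Arid1a, which keeps the pluripotent state, and in which Smarca2 and Smarcc2 have little part.

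All cells lacked Kmt2c, were kept as naive embryonic stem cells in serum with LIF and inhibitors of MEK and GSK3, and came from a C57BL/6J x 129 cross. The double-KO cells also lacked Kmt2d, and the Kmt2c-KO cells carried floxed Kmt2d alleles (written Kmtd fl/fl in the labels). GRHL2-ERT, an epithelial transcription factor joined to an estrogen receptor domain that tamoxifen draws into the nucleus, had been integrated by transposition into both lines, and clones were picked for similar GRHL2 levels, so that each line was represented by selected clones. GRHL2-ERT double-KO cells received tamoxifen or ethanol, GRHL2-ERT Kmt2c-KO cells received tamoxifen or ethanol, and Kmt2c-KO cells without the transgene received tamoxifen, each for 8 h or 16 h. Each of these 10 groups had 3 libraries, made with a QuantSeq kit, in which each transcript gives a tag from close to its 3′ end. RNA came from whole cultures, so fewer cells of a kind and less RNA per cell cannot be told apart. The labels number the libraries without saying whether they came from separate cultures, so every p measured the spread between these libraries, which may be technical.

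Recovered depth ran from 8.85 to 22.1 M reads, and 3 reads stood for 0.136 to 0.339 CPM (counts scaled to one total in each library). All 12 naive stem cell markers looked for were in the table, with a summed level of 5291 to 12002 CPM. Markers of other cell types were far lower in sum, at 0 to 5.64 CPM for fibroblasts, 0.151 to 13.0 CPM for primitive endoderm, 3.20 to 14.6 CPM for mesoderm, 0 to 6.76 CPM for muscle, 13.5 to 97.4 CPM for neural cells and 22.5 to 122 CPM for trophoblast. Grhl2 averaged 41.2 to 78.3 CPM in the double-KO groups, 77.5 to 178 CPM in the GRHL2-ERT Kmt2c-KO groups and 1.78 to 2.66 CPM without the transgene. Tags of Kmt2c and Kmt2d were present in every group, and a 3′ tag outside a deleted part checks no deletion. The ribosomal precursor Rn45s took 1.85% to 7.40% of reads, and exceeded 6% in 2 libraries, replicate 2 of the double-KO tamoxifen group at 8 h (7.37%) and replicate 3 of the Kmt2c-KO ethanol group at 8 h (7.40%). The first of these also had the lowest depth and the lowest mean correlation with its own group (0.938), and results that rest on either library are given with and without it.

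The members covered a wide range of levels. Because 1 tag was read per transcript end, CPM was not divided by length. Smarca4, the ATPase that drives the complex (mm10 9:21616169-21704230), averaged 141 CPM over the 30 libraries. Among the core subunits, Smarcc1 (9:110117708-110240178), a scaffold on which the complex is assembled, averaged 247 CPM, more than any other member. Smarce1 (11:99209047-99231017), a core subunit with a DNA-binding HMG domain, averaged 136 CPM. Smarcb1 (10:75896769-75921617), the core subunit that contacts the nucleosome and is lost in human rhabdoid tumours, averaged 58.6 CPM. The gene model of Smarcc1 overlaps Dhx30 on the other strand, and whether the counting used strand was not given in the sources used here.

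The Smarcd genes encode the BAF60 proteins, of which 1 sits in a complex and links it to transcription factors. Smarcd2 (11:106263179-106272972) averaged 39.0 CPM, Smarcd1 (15:99702129-99713991) 29.8 CPM and Smarcd3 (5:24590818-24624411), best known from the developing heart and muscle, 3.36 CPM. Of the subunits that set canonical BAF apart from its relatives, Arid1a (4:133679008-133756769) averaged 68.2 CPM, its alternative Arid1b (17:4994332-5347656) 19.1 CPM and Dpf2 (19:5896516-5913010), a reader of modified histone tails, 46.2 CPM. By mean level the members ranked between 593 (Smarcc1) and 9654 (Smarcd3) of the 12428 genes. Smarcd3 thus lay near the lower end of what was measured, with 3.00 to 112 reads per library.

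**Figure D1:**
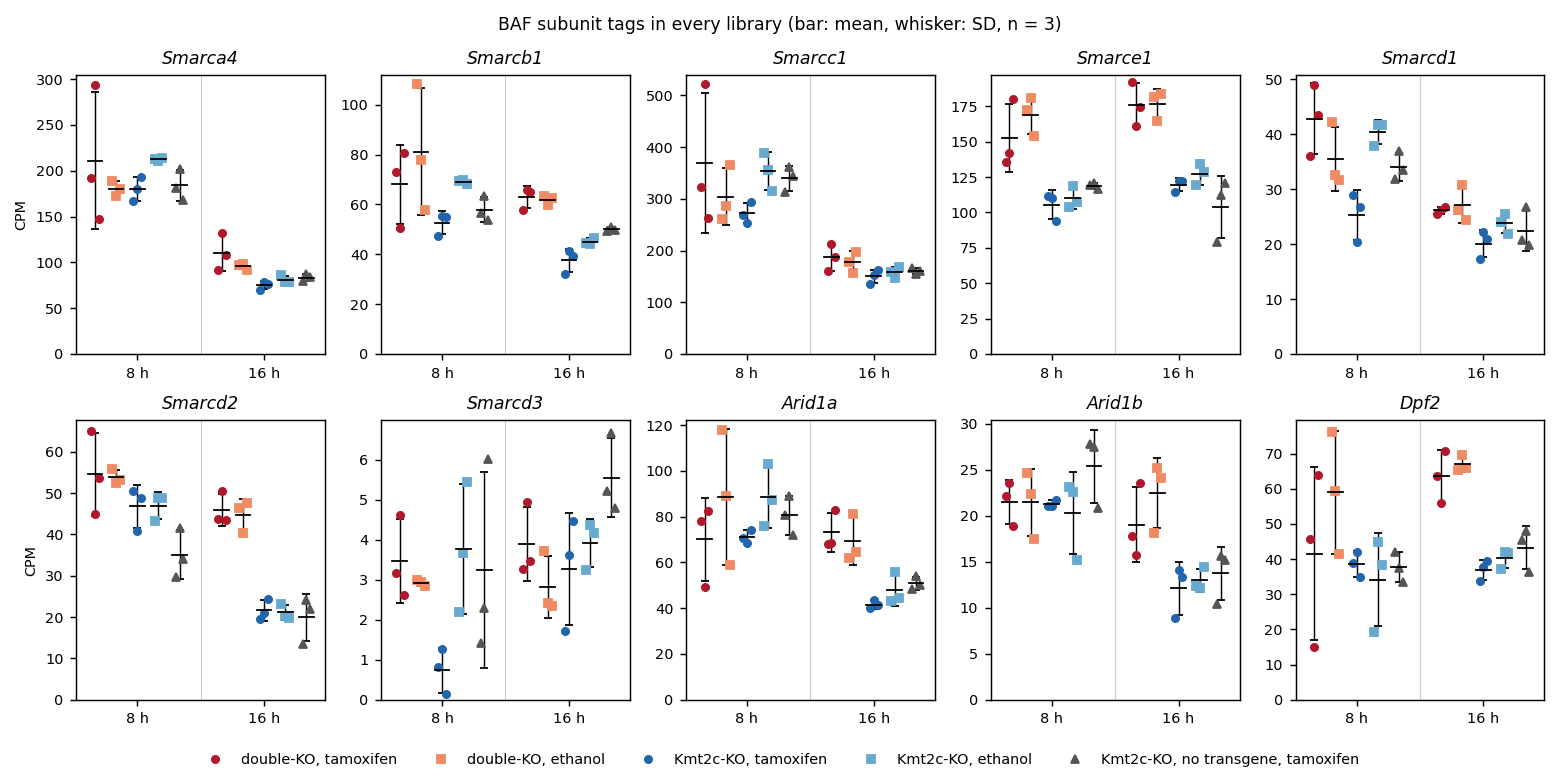
Tags of each of the 10 members in CPM (vertical axis, starting at 0) in every library, with groups from left to right at 8 h and then at 16 h. Points are libraries, horizontal bars means and whiskers SD (n = 3). Smarca4 and Smarcc1 stand lower at 16 h in every line and treatment, Smarcd2 separates the lines at 16 h, and Smarcd3 has its lowest mean in Kmt2c-KO cells with GRHL2-ERT given tamoxifen for 8 h.

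Activation of GRHL2-ERT for 8 h in Kmt2c-KO cells was accompanied by lower RNA of 2 members, Smarcd1 and Smarcd3, both of them BAF60 genes, while the third BAF60 gene, Smarcd2, did not pass the test. Nor did any other member. Smarcd1 had 29.0, 20.3 and 26.7 CPM in tamoxifen, against 37.9, 41.7 and 41.6 CPM in ethanol. Every tamoxifen library was below every ethanol library, and the log2 fold change was -0.67 ± 0.15 (SE, limma, adjusted p = 0.0056). Smarcd3 had 0.820, 1.26 and 0.138 CPM in tamoxifen, against 2.20, 3.67 and 5.43 CPM in ethanol. These rested on 15.0, 19.0 and 3.00 reads in tamoxifen, against 37.0, 59.9 and 67.1 reads in ethanol, and the groups did not overlap. Its log2 fold change was -1.45 ± 0.32 (adjusted p = 0.0057) on the log2(CPM + 1) scale, which understates changes of low genes. It was -2.44 with a pseudocount of 0.1 and -0.60 with one of 5, and was called with both. Its mean in tamoxifen was 0.196 times that in ethanol.

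Smarcd2 had 50.6, 40.8 and 48.9 CPM in tamoxifen, against 43.1, 48.9 and 48.7 CPM in ethanol, with overlapping groups and a log2 fold change of -0.01 ± 0.16 (95% interval -0.34 to 0.33, adjusted p = 0.99). Over all tested genes 2.04% were called lower in this contrast, against 2 of the 10 members. The calls of both genes were lost when single libraries were left out. Smarcd1 gave -0.52 (adjusted p = 0.075) without tamoxifen replicate 2. Smarcd3 gave -1.18 (adjusted p = 0.056) without tamoxifen replicate 3 and -1.21 (adjusted p = 0.053) without ethanol replicate 3, the library rich in Rn45s. Rn45s itself fell in this contrast, by 0.73 ± 0.21 on the log2 scale (limma, adjusted p = 0.039). Of the 12 naive stem cell markers 3 were called lower. The 12 summed to 9301 to 10573 CPM in tamoxifen, against 8464 to 10142 CPM in ethanol, with overlapping groups. The part of Rn45s and of these markers in the results was not tested. Chpf2, which lies on the other strand at the 3′ end of Smarcd3, gave 0.51 ± 0.33 (adjusted p = 0.44).

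The promoters of the 3 BAF60 genes are shown because 2 of these related genes were called lower and the third was not. Each line gives the 250 bases before the transcription start in RefSeq (GRCm38.p6), 5′ to 3′ on the gene's strand, with CpG pairs in capitals. They are Smarcd1 at chr15:99702037-99702286 on the plus strand, Smarcd3 at chr5:24602003-24602252 on the minus strand and Smarcd2 at chr11:106267633-106267882 on the minus strand. The RefSeq starts of all 3 lie inside the mm10 gene models given above, so other starts exist.
Smarcd1: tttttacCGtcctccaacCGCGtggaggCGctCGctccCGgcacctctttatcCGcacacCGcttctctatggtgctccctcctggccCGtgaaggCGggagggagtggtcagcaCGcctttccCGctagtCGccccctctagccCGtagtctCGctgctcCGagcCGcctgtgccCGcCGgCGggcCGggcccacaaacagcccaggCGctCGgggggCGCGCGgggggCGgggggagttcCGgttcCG
Smarcd3: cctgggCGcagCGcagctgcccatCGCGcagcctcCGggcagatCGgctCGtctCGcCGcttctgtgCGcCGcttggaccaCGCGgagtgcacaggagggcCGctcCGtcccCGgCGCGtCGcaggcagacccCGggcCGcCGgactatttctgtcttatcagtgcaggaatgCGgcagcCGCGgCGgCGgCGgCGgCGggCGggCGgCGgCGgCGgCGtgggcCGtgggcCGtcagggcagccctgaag
Smarcd2: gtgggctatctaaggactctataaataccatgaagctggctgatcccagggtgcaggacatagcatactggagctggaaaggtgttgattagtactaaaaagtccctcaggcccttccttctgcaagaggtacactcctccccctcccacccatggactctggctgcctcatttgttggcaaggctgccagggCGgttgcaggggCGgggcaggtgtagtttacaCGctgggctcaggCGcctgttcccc
The Smarcd1 stretch holds 29 CpG pairs and the Smarcd3 stretch 38. The Smarcd2 stretch holds 4, below the median of 16 over promoters of genes in the table. A GRHL-type motif, AACCNGTT or its reverse complement AACNGGTT, occurred in none of the promoters of the 9 members that could be matched, and in 1.79% of 32851 promoters of this length. This describes the letters of these windows alone.

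The Smarcd1, Smarcd2 and Smarcd3 values of GRHL2-ERT Kmt2c-KO cells at 8 h were also read as shares of BAF60 RNA. Shares do not depend on how libraries are scaled to each other, but follow from the same values and were not tested. Smarcd2 made up 64.3% ± 1.26 of Smarcd1, Smarcd2 and Smarcd3 tags in tamoxifen and 51.5% ± 0.543 in ethanol (SD, n = 3 each). Smarcd1 made up 34.6% ± 1.83 in tamoxifen and 44.4% ± 1.06 in ethanol, and Smarcd3 1.07% ± 0.921 in tamoxifen and 4.07% ± 1.52 in ethanol. The lowest Smarcd2 share in tamoxifen, 63.0%, lay above the highest in ethanol, 51.8%. Kmt2c-KO cells without the transgene, given tamoxifen for the same 8 h, had a Smarcd2 share of 48.3% ± 2.79. In double-KO cells at 8 h the Smarcd2 share was 53.9% ± 8.38 in tamoxifen and 58.5% ± 2.88 in ethanol, with overlapping groups.

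**Figure D2:**
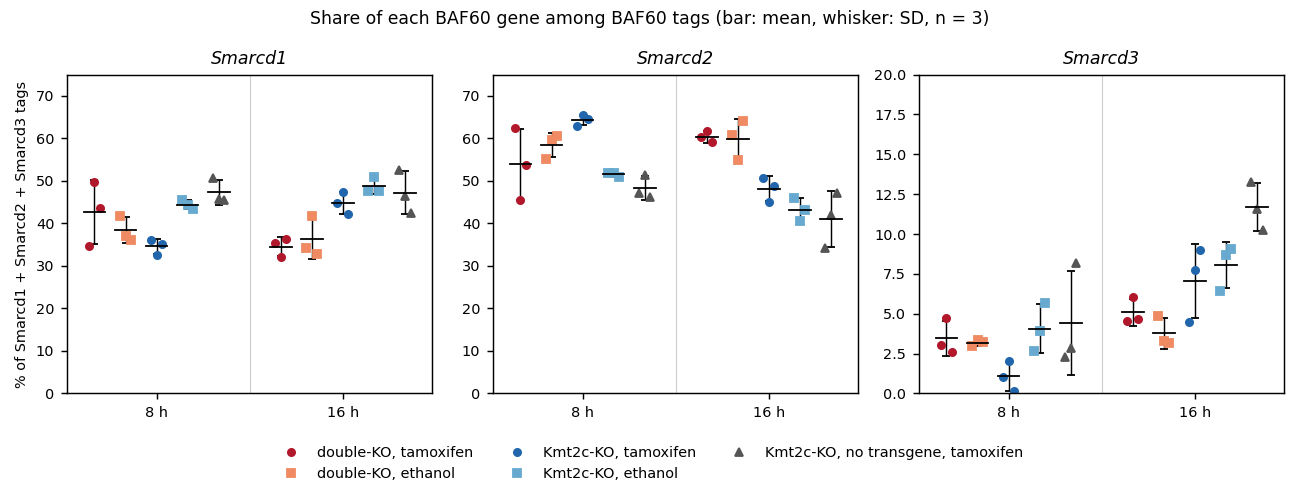
Share of each BAF60 gene among Smarcd1, Smarcd2 and Smarcd3 tags in percent (vertical axes start at 0, and the Smarcd3 axis ends at 20%) in every library, by line, treatment and time. Points are libraries, bars means and whiskers SD (n = 3). Kmt2c-KO cells with GRHL2-ERT in tamoxifen for 8 h had the lowest mean Smarcd3 share of the 10 groups (1.07%) and the highest mean Smarcd2 share (64.3%).

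The other members of the Kmt2c-KO cells at 8 h did not pass the test. Smarcb1 had 47.3, 55.4 and 55.0 CPM in tamoxifen, against 69.2, 69.7 and 68.3 CPM in ethanol, and Smarcc1 had 269, 254 and 293 CPM in tamoxifen, against 389, 355 and 315 CPM in ethanol. Both had groups that did not overlap, with log2 fold changes of -0.39 ± 0.16 (adjusted p = 0.17) and -0.37 ± 0.16 (adjusted p = 0.21). Smarca4 (-0.24 ± 0.15), Arid1a (-0.30 ± 0.19), Smarce1 (-0.06 ± 0.12), Arid1b (0.09 ± 0.20) and Dpf2 (0.25 ± 0.33) had adjusted p between 0.41 and 0.86. The groups of Smarca4 and Arid1a did not overlap either, with tamoxifen below ethanol. How many of all genes had groups that did not overlap was not counted, in this or any other contrast. The members' median was -0.27, beside 0.03 over all tested genes.

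Kmt2c-KO cells without the transgene allow tamoxifen with and without the factor to be compared. At 8 h in tamoxifen, Smarcd3 had 0.820, 1.26 and 0.138 CPM with GRHL2-ERT, against 1.42, 2.30 and 6.03 CPM without it. The groups did not overlap, and the log2 fold change was -1.20 ± 0.32 (adjusted p = 0.029), where 1.39% of all tested genes were called lower. This call rested on single libraries, since it gave -0.76 (adjusted p = 0.27) without replicate 3 of the cells lacking the transgene, -0.92 (adjusted p = 0.19) without GRHL2-ERT replicate 3 and -1.26 (adjusted p = 0.064) without GRHL2-ERT replicate 1. With a pseudocount of 5 it gave -0.49 (adjusted p = 0.079), and with a replicate block within line and time -1.20 (adjusted p = 0.069). Smarcd1 had 29.0, 20.3 and 26.7 CPM with GRHL2-ERT, against 31.9, 36.9 and 33.5 CPM without it. Its groups were apart too, with -0.43 ± 0.15 (adjusted p = 0.11). Smarcc1 and Smarce1 were also lower in every GRHL2-ERT library, without a call. Smarcd2 gave 0.41 ± 0.16 (adjusted p = 0.19). These values share the GRHL2-ERT tamoxifen libraries with the contrast against ethanol.

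At 16 h no member passed the test in either contrast of the Kmt2c-KO line. Against ethanol, 0.298% of all genes were called in either direction and 597 had an unadjusted p under 0.05, with 0 members among them. Smarcd1 had 17.3, 22.1 and 20.9 CPM in tamoxifen, against 24.1, 25.6 and 21.9 CPM in ethanol, which overlapped (-0.24 ± 0.15). Smarcd3 had 1.73, 3.62 and 4.46 CPM in tamoxifen, against 3.23, 4.37 and 4.17 CPM in ethanol (-0.26 ± 0.32). The 10 members lay between -0.26 and 0.03. Smarca4 and Smarcb1 were lower in every tamoxifen library than in every ethanol library, without a call. Against cells without the transgene, 0.975% of all genes were called, and 1076 genes and 2 members had an unadjusted p under 0.05. The members closest to the threshold there were Smarcb1 (-0.41 ± 0.16, adjusted p = 0.32) and Smarcd3 (-0.67 ± 0.32, adjusted p = 0.57). The change of the tamoxifen response between 8 h and 16 h was 1.20 ± 0.46 for Smarcd3 (adjusted p = 0.63) and 0.43 ± 0.21 for Smarcd1 (adjusted p = 0.78). No member passed that test, by which 0.0644% of all genes were called and 789 genes and 2 members had an unadjusted p under 0.05.

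In double-KO cells no member was called for tamoxifen at either time. At 8 h, 0.0967% of all genes were called in either direction and 2520 had an unadjusted p under 0.05, with 0 members among them. Called genes split into 8 higher and 4 lower, and into 11 higher and 2 lower under median-of-ratios scaling. Smarcd1 had 36.1, 48.9 and 43.5 CPM in tamoxifen, against 42.2, 32.6 and 31.6 CPM in ethanol, with overlapping groups (0.27 ± 0.15, adjusted p = 0.30). Smarcd3 had 3.18, 4.63 and 2.61 CPM in tamoxifen, against 2.99, 2.95 and 2.83 CPM in ethanol (0.16 ± 0.32). Smarca4 had 192, 294 and 147 CPM in tamoxifen, against 189, 172 and 180 CPM in ethanol (0.17 ± 0.15), and gave -0.099 without tamoxifen replicate 2, the library of lowest depth. That library also held the highest level of Smarcc1 (521 CPM) and the lowest of Dpf2 (15.1 CPM) of all 30, and Smarcc1 gave 0.23 ± 0.16 with it and -0.045 without it. Dpf2 gave -0.67 ± 0.33 (adjusted p = 0.25) with it and -0.084 without it. Without tamoxifen replicate 3, in contrast, 3 members were called, namely Smarca4 (0.40), Smarcc1 (0.45) and Dpf2 (-1.09). That fit kept replicate 2, and calls over all genes ran from 4 to 3146 of 12414 when 1 library was left out. At 16 h, 0.0403% of all genes were called and 519 had an unadjusted p under 0.05, with 0 members among them, and the members lay between -0.24 (Arid1b) and 0.36 (Smarcd3).

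The 2 lines differed in their response for 1 member at 8 h. They were selected clones with different ranges of mean Grhl2 level, as given above. Loss of Kmt2d, clone and Grhl2 level cannot be told apart in any comparison of the lines, and their parts were not tested. For Smarcd1 the tamoxifen response of double-KO cells minus that of Kmt2c-KO cells was 0.93 ± 0.21 on the log2 scale (limma interaction, adjusted p = 0.023), where 0.524% of all genes were called higher. The call was lost without Kmt2c-KO tamoxifen replicate 2 (0.79, adjusted p = 0.085), without double-KO ethanol replicate 2 (0.88, adjusted p = 0.068) and without the 2 libraries rich in Rn45s (0.81, adjusted p = 0.080). It was also lost with array weights (1.00, adjusted p = 0.54) and when the 12 libraries were tested on their own (adjusted p = 0.40). A replicate block within line and time lost it too (0.93, adjusted p = 0.065). The same difference for Smarcd3 was 1.62 ± 0.46 (adjusted p = 0.061), and 1.72 (adjusted p = 0.049) under median-of-ratios scaling. For Smarcd2 it was 0.01 ± 0.23 (adjusted p = 0.98). At 16 h no member and 0% of all genes were called, with 315 genes and 0 members at an unadjusted p under 0.05.

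**Figure D3:**
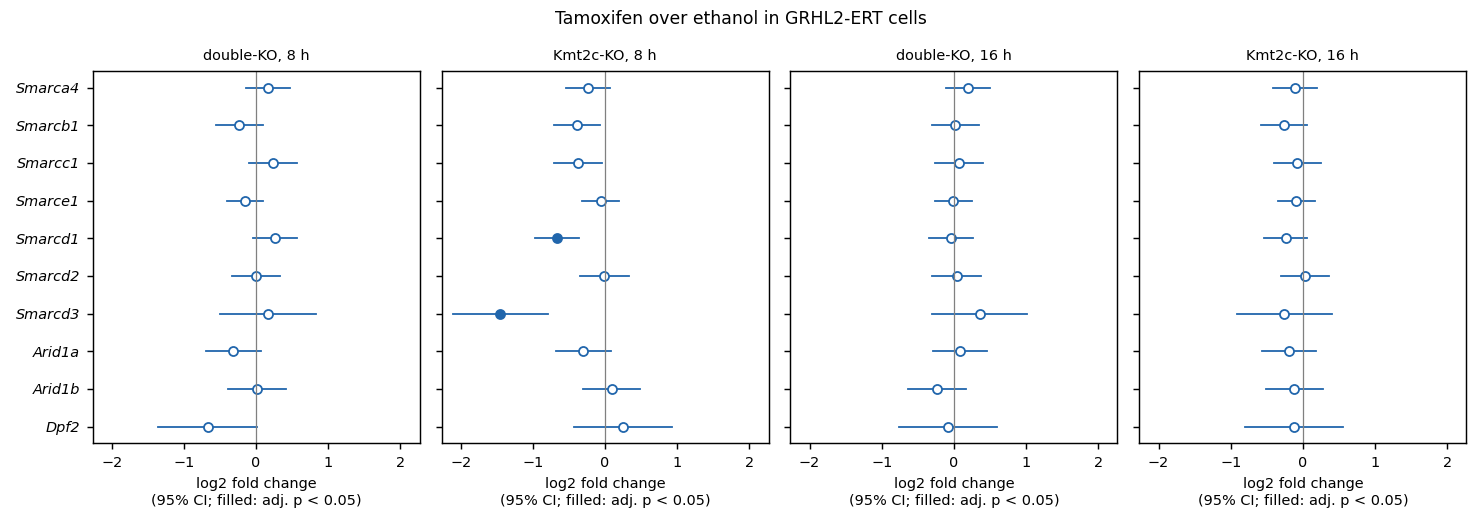
Log2 fold change of tamoxifen over ethanol (horizontal axis) for the 10 members in GRHL2-ERT double-KO and Kmt2c-KO cells at 8 h and 16 h. Circles are limma estimates from 3 libraries per group, lines 95% intervals and filled circles an adjusted p under 0.05. Smarcd1 (-0.67) and Smarcd3 (-1.45) in Kmt2c-KO cells at 8 h are the filled circles.

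The lines were compared with libraries scaled to their total and by the median of ratios. In ethanol 2 of 10 members were called higher by total in the double-KO line at 8 h, and 5 at 16 h. Of all genes, 37.6% and 40.0% were. In tamoxifen 3 were at 8 h and 7 at 16 h, beside 30.6% and 41.2% of all genes. By median of ratios 1 was higher and 3 lower in ethanol at 8 h, and 1 was higher at 16 h. In tamoxifen 3 were higher at each time. At 16 h the difference in Smarcd2 was the widest among members. How libraries were scaled mattered here. The median log2 fold change over all tested genes, double-KO over Kmt2c-KO, was 0.18 in tamoxifen and 0.31 in ethanol at 8 h, and 0.35 in tamoxifen and 0.35 in ethanol at 16 h when libraries were scaled to their total. It was at most 0.03 when they were scaled by the median of ratios. Called genes in ethanol at 8 h split into 4664 higher and 1472 lower by total, and into 2590 higher and 2645 lower by median of ratios, and in ethanol at 16 h into 4967 higher and 1236 lower by total, and into 2573 higher and 2575 lower by median of ratios. In tamoxifen they split at 8 h into 3793 higher and 1734 lower by total, and into 2429 higher and 2611 lower by median of ratios, and at 16 h into 5116 higher and 1250 lower by total, and into 2676 higher and 2665 lower by median of ratios. Markers of cell state also differed between the lines. The naive stem cell markers summed to 5291 to 6142 CPM in the double-KO libraries, against 8464 to 12002 CPM in the Kmt2c-KO libraries, those of neural cells to 43.5 to 97.4 CPM in double-KO against 13.5 to 22.3 CPM in Kmt2c-KO libraries, and those of primitive endoderm to 3.05 to 13.0 CPM in double-KO against 0.151 to 2.68 CPM in Kmt2c-KO libraries. In ethanol 6 of the 12 naive markers were called lower in double-KO cells at each time, and 3 at 8 h and 1 at 16 h higher. The part of these markers in the differences between lines was not tested.

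Smarcd2 in ethanol at 16 h had 46.5, 40.3 and 47.5 CPM in double-KO cells, against 23.2, 20.3 and 19.8 CPM in Kmt2c-KO cells. In tamoxifen at 16 h it had 43.6, 50.4 and 43.6 CPM in double-KO cells, against 19.5, 21.02 and 24.3 CPM in Kmt2c-KO cells. The lines did not overlap, and the double-KO means were 2.12 times the Kmt2c-KO means in both. The log2 fold changes were 1.06 ± 0.16 in tamoxifen (adjusted p = 5.0e-06) and 1.05 ± 0.16 in ethanol (adjusted p = 5.8e-06). By median of ratios they were 0.68 in tamoxifen and 0.69 in ethanol, and both were still called. At 8 h they were 0.21 ± 0.16 in tamoxifen and 0.20 ± 0.16 in ethanol, and neither was called. As a share of BAF60 tags at 16 h, Smarcd2 made up 60.4% ± 1.39 in tamoxifen-treated and 59.9% ± 4.62 in ethanol-treated double-KO cells, against 48.2% ± 2.93 and 43.2% ± 2.74 in tamoxifen-treated and ethanol-treated Kmt2c-KO cells (SD, n = 3).

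Smarce1 was higher in double-KO cells in each of the 4 comparisons by total. In ethanol at 8 h it had 172, 181 and 154 CPM in double-KO cells, against 104, 119 and 107 CPM in Kmt2c-KO cells, with no overlap (0.62 ± 0.12, adjusted p = 0.00019). In tamoxifen at 8 h it gave 0.52 ± 0.12 (adjusted p = 0.0011). At 16 h it gave 0.55 ± 0.12 in tamoxifen (adjusted p = 0.00051) and 0.47 ± 0.12 in ethanol (adjusted p = 0.0025). By median of ratios the differences at 8 h were still called, at 0.32 in tamoxifen and 0.30 in ethanol. Those at 16 h, at 0.17 in tamoxifen and 0.10 in ethanol, were not.

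Counted together at 16 h, 7 of 10 members were higher by total in tamoxifen, where 41.2% of all genes were called higher, and 5 of 10 in ethanol, where 40.0% were. By median of ratios 3 members were higher in tamoxifen, beside 21.6% of all genes, and 1 in ethanol, beside 20.7%. In tamoxifen the 3 were Smarcd2, Arid1a (0.80 ± 0.19 by total and 0.41 by median of ratios) and Smarcb1 (0.73 ± 0.16 by total and 0.35 by median of ratios). Arid1a in tamoxifen had 68.1, 68.4 and 83.1 CPM in double-KO cells, against 40.0, 43.6 and 41.2 CPM in Kmt2c-KO cells. Smarcb1 had 57.7, 65.7 and 65.1 CPM in double-KO cells, against 32.3, 41.1 and 39.4 CPM in Kmt2c-KO cells. Both were separate between the lines. Arid1b (0.62 ± 0.20), Smarca4 (0.54 ± 0.15), Smarce1 and Smarcd1 (0.37 ± 0.15) were called in tamoxifen by total alone. There Arid1b gave 0.25, Smarca4 0.15 and Smarcd1 -0.0016 by median of ratios. In ethanol Arid1b (0.74 ± 0.20), Arid1a (0.52 ± 0.19), Smarce1 and Smarcb1 (0.45 ± 0.16) were called by total alone. Here Arid1b gave 0.39, Arid1a 0.16 and Smarcb1 0.086 by median of ratios. Dpf2 was called in neither, at 0.76 ± 0.33 in tamoxifen (adjusted p = 0.058, and 0.38 by median of ratios) and 0.72 ± 0.33 in ethanol (adjusted p = 0.075, and 0.36 by median of ratios), although its lines did not overlap. Smarcd1 in tamoxifen lost its call without any 1 of 5 of the 6 libraries of that contrast. Arid1b in tamoxifen lost it without Kmt2c-KO replicate 1 or double-KO replicate 3. In ethanol, Arid1a lost it without Kmt2c-KO replicate 1 or 3 or double-KO replicate 2, and Smarcb1 without Kmt2c-KO replicate 2 or double-KO replicate 1.

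At 8 h in tamoxifen 3 of 10 members were higher by total, beside 30.6% of all genes, and the same 3 by median of ratios, beside 19.6%. Smarcd1 gave 0.74 ± 0.15 (adjusted p = 0.00018) by total and 0.54 by median of ratios, and Smarcd3 1.39 ± 0.32 (adjusted p = 0.00089) by total and 1.26 by median of ratios, with Smarce1 as the third. These use the Kmt2c-KO tamoxifen libraries in which both BAF60 genes were low. With array weights neither BAF60 gene was called, at adjusted p of 0.053 for Smarcd1 and 0.20 for Smarcd3, and with the 6 libraries alone Smarce1 was not (adjusted p = 0.058). Without double-KO replicate 2 Smarcb1 was called too, at 0.54 (adjusted p = 0.0035), against 0.34 with it. In ethanol at 8 h, 2 of 10 members were higher by total, beside 37.6% of all genes, and 1 by median of ratios, beside 20.9%. The one beside Smarce1 was Dpf2, which had 76.2, 59.4 and 41.4 CPM in double-KO cells, against 19.4, 45.0 and 38.2 CPM in Kmt2c-KO cells (0.81 ± 0.33, adjusted p = 0.046). Its groups overlapped, and it gave 0.46 (adjusted p = 0.28) without Kmt2c-KO replicate 1, 0.61 (adjusted p = 0.19) without double-KO replicate 1, 0.78 (adjusted p = 0.099) without double-KO replicate 2 and 0.50 (adjusted p = 0.19) by median of ratios. With the 6 libraries alone its adjusted p was 0.084. By median of ratios alone 3 members were lower in double-KO cells, beside 21.3% of all genes called lower. They were Smarca4 (-0.55), Smarcc1 (-0.54) and Smarcd1 (-0.50), which by total gave -0.23, -0.23 and -0.19 without a call.

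**Figure D4:**
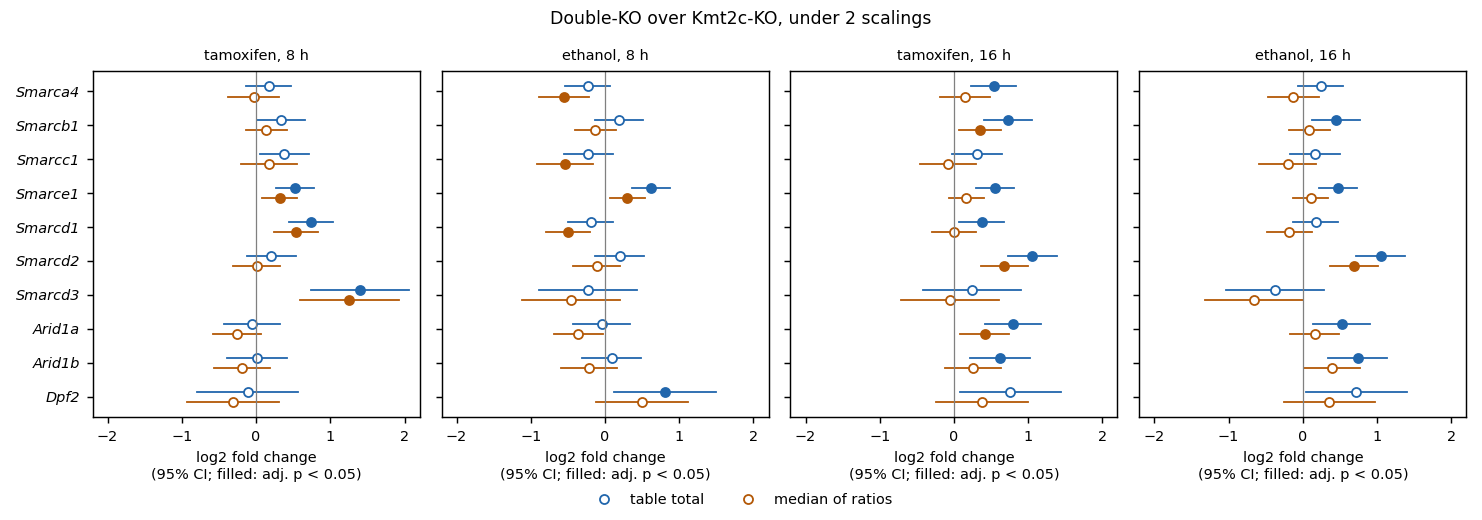
Log2 fold change of double-KO over Kmt2c-KO cells (horizontal axis), both with GRHL2-ERT, for the 10 members in tamoxifen and ethanol at 8 h and 16 h, with libraries scaled to their total or by the median of ratios. Circles are limma estimates from 3 libraries per group, lines 95% intervals and filled circles an adjusted p under 0.05. Most estimates move to the left by median of ratios, and Smarcd2 at 16 h stays filled under both (1.06 and 0.68 in tamoxifen).

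Smarca4 and Smarcc1 were lower at 16 h than at 8 h in all 5 sets of line and treatment. Which day or batch each time was prepared in is not given by the labels, so time and preparation cannot be told apart. Rn45s was lower at 16 h in all 5 sets as well, with log2 fold changes between -1.22 and -0.60, and its part in the differences was not tested. The summed level of trophoblast markers in the Kmt2c-KO libraries was 22.5 to 37.6 CPM at 16 h, against 77.7 to 122 CPM at 8 h, and its part was not tested either. The median log2 fold change of all genes lay between -0.15 and 0.02 over the sets by total, and between -0.03 and -0.00 by median of ratios. Called genes in GRHL2-ERT Kmt2c-KO cells in ethanol split into 2177 higher and 3410 lower by total, and into 2851 higher and 2697 lower by median of ratios. In the same cells in tamoxifen they split into 1481 higher and 3271 lower by total, and into 2315 higher and 2307 lower by median of ratios. Without the transgene the split was 1352 higher and 3189 lower by total, and 2164 higher and 2010 lower by median of ratios. In double-KO cells in ethanol it was 1083 higher and 1556 lower by total, and 1412 higher and 1021 lower by median of ratios. In double-KO cells in tamoxifen it was 2343 higher and 2092 lower by total, and 2363 higher and 2055 lower by median of ratios. Over all 15 libraries at each time Smarca4 ran from 70.3 to 132 CPM at 16 h, with a median of 86.0, and from 147 to 294 CPM at 8 h, with a median of 189, without overlap. Smarcc1 ran from 136 to 213 CPM at 16 h, with a median of 160, and from 254 to 521 CPM at 8 h, with a median of 315, also without overlap.

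In Kmt2c-KO cells with GRHL2-ERT in ethanol, 7 of 10 members fell, beside 27.5% of all genes. They were Smarca4 (-1.38 ± 0.15, adjusted p = 6.9e-08), Smarcc1 (-1.15 ± 0.16, adjusted p = 3.4e-06), Smarcd2 (-1.12 ± 0.16, adjusted p = 5.5e-06), Arid1a (-0.87 ± 0.19), Smarcd1 (-0.74 ± 0.15), Smarcb1 (-0.60 ± 0.16) and Arid1b (-0.58 ± 0.20). Smarca4 had 86.0, 79.0 and 78.7 CPM at 16 h, against 212, 211 and 214 CPM at 8 h. Smarcd2 had 23.2, 20.3 and 19.8 CPM at 16 h, against 43.1, 48.9 and 48.7 CPM at 8 h. In both genes the times were far apart relative to the spread within each. The same 7 were called by median of ratios. Arid1b lost its call without 8 h replicate 1 or 2 or 16 h replicate 1 or 2.

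In the same cells in tamoxifen 6 members fell, beside 26.3% of all genes, and Smarcd3 rose, beside 11.9%. The falls were those of Smarca4 (-1.25 ± 0.15), Smarcd2 (-1.08 ± 0.16), Smarcc1 (-0.85 ± 0.16), Arid1b (-0.79 ± 0.20), Arid1a (-0.76 ± 0.19) and Smarcb1 (-0.48 ± 0.16). Smarcd3 had 1.73, 3.62 and 4.46 CPM at 16 h, against 0.820, 1.26 and 0.138 CPM at 8 h (1.29 ± 0.32, adjusted p = 0.0024), with no overlap. Of the 6 falls, 5 were also called by median of ratios, and that of Smarcb1 was not (-0.32, adjusted p = 0.064). Smarcb1 also lost its call without 16 h replicate 1 or 8 h replicate 2 or 3.

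Kmt2c-KO cells without the transgene, in tamoxifen, showed 6 falls, beside 25.7% of all genes, in Smarca4 (-1.13 ± 0.15), Smarcc1 (-1.08 ± 0.16), Arid1b (-0.85 ± 0.20), Smarcd2 (-0.81 ± 0.16), Arid1a (-0.65 ± 0.19) and Smarcd1 (-0.59 ± 0.15), and the same 6 were called by median of ratios. The difference between times was thus measured in cells without GRHL2-ERT as well. Smarcd3 had 5.22, 6.66 and 4.78 CPM at 16 h, against 1.42, 2.30 and 6.03 CPM at 8 h. These overlapped (0.76 ± 0.32, adjusted p = 0.064, and 0.92 with adjusted p = 0.029 by median of ratios).

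In double-KO cells fewer members passed. In tamoxifen 3 fell, beside 16.9% of all genes, and these were Smarcc1 (-0.93 ± 0.16), Smarca4 (-0.88 ± 0.15) and Smarcd1 (-0.68 ± 0.15). These 3 calls were lost when the 6 libraries were tested on their own, with adjusted p between 0.16 and 0.17, and with array weights, with adjusted p between 0.11 and 0.25. Without 8 h replicate 2, the library of lowest depth, Smarcc1 gave -0.65, Smarca4 -0.62 and Smarcd1 -0.58, and all 3 stayed called. In ethanol 2 fell, beside 12.5% of all genes, and these were Smarca4 (-0.90 ± 0.15, adjusted p = 0.00014) and Smarcc1 (-0.76 ± 0.16, adjusted p = 0.0016). Smarca4 in ethanol had 97.3, 98.5 and 92.1 CPM at 16 h, against 189, 172 and 180 CPM at 8 h, with no overlap. All 5 of these falls were called under both scalings.

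The difference between times itself differed between the lines for 1 member in ethanol. For Smarcd2 the difference between 16 h and 8 h in double-KO cells minus that in Kmt2c-KO cells was 0.85 ± 0.23 (adjusted p = 0.027), where 3.58% of all genes were called higher. Called genes split into 444 higher and 157 lower by total, and into 340 higher and 235 lower by median of ratios, under which Smarcd2 gave 0.80 (adjusted p = 0.031). Double-KO cells in ethanol had 46.5, 40.3 and 47.5 CPM at 16 h, against 55.8, 52.6 and 53.0 CPM at 8 h (-0.26 ± 0.16, adjusted p = 0.25), whereas Kmt2c-KO cells fell by 1.12. The call was lost in 7 of the 12 fits that left out 1 library, with values between 0.81 and 0.84 and adjusted p between 0.056 and 0.073. A replicate block within line and time lost it too (0.85, adjusted p = 0.080). For Smarca4 the same difference was 0.47 ± 0.21 (adjusted p = 0.21), for Arid1b 0.65 ± 0.28 (adjusted p = 0.19) and for Arid1a 0.57 ± 0.26 (adjusted p = 0.23).

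Smarce1 and Dpf2 were not called lower at 16 h in any set. Smarce1 gave 0.21 ± 0.12 in double-KO cells in tamoxifen, 0.06 ± 0.12 in double-KO cells in ethanol, 0.18 ± 0.12 in Kmt2c-KO cells in tamoxifen, 0.21 ± 0.12 in Kmt2c-KO cells in ethanol and -0.21 ± 0.12 without the transgene. By median of ratios it was called higher at 16 h in Kmt2c-KO cells, at 0.34 in tamoxifen and 0.33 in ethanol. Dpf2 ran from -0.06 to 0.81 over the 5 sets, the highest in double-KO cells in tamoxifen, where it had 63.6, 56.0 and 70.9 CPM at 16 h, against 45.6, 15.1 and 63.8 CPM at 8 h (adjusted p = 0.058, and 0.043 by median of ratios). Without 8 h replicate 2, the library of lowest depth, this difference was 0.22 (adjusted p = 0.58).

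**Figure D5:**
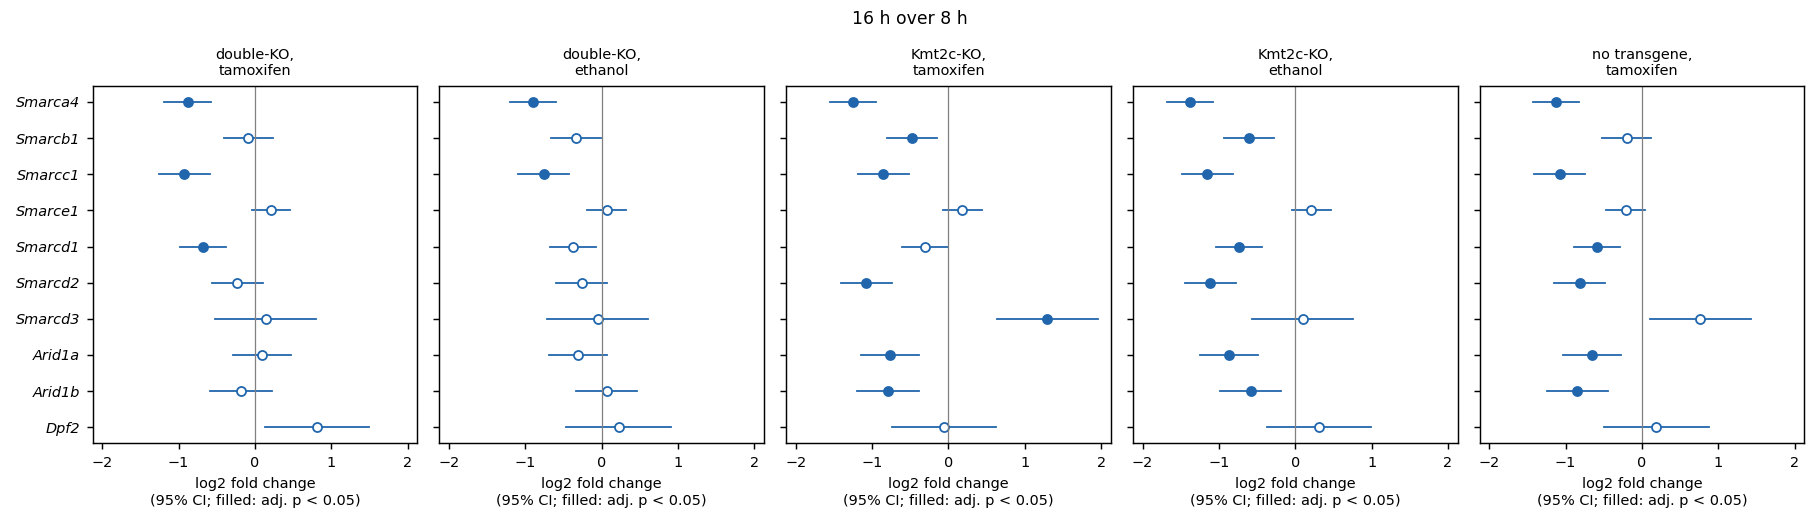
Log2 fold change of 16 h over 8 h (horizontal axis) for the 10 members in the 5 sets of line and treatment. Circles are limma estimates from 3 libraries per group with libraries scaled to their total, lines 95% intervals and filled circles an adjusted p under 0.05. Smarca4 and Smarcc1 are filled on the left in all 5 sets, and Smarcd2 in the 3 Kmt2c-KO sets.

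The members also differed in their pattern over the 10 group means, given as a description, since the groups share lines and times. Smarca4 and Smarcc1 had a Pearson correlation of 0.99 over these 10 means, whereas Smarce1 had -0.02, Dpf2 -0.30 and Smarcd3 -0.40 with Smarca4. The remaining members lay between 0.72 (Smarcb1) and 0.87 (Smarcd1). Smarca4 varied most between groups relative to its spread within them, and ranked 867 of 12414 genes by the moderated F of limma. Among 8824 genes compared, those with the pattern closest to Smarca4 were Clasrp (Pearson r = 0.992), Pgam1 (0.991), Hsp90ab1 (0.990), Ddx24 (0.989) and Ubr4 (0.989).

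Genes of the other SWI/SNF subunits were read beside the members, and 17 of 21 were in the table. None was called in the 4 contrasts of tamoxifen against ethanol or in the differences of response. Of all 12414 tested genes, 5 to 615 were called in those contrasts and 0 to 177 in those differences. Between lines in ethanol 7 were higher and 1 lower at 8 h, and 9 higher and 1 lower at 16 h by total, beside 37.6% and 40.0% of all genes called higher. Scaled by the median of ratios, 2 were higher and 2 lower at 8 h, and 4 higher and 1 lower at 16 h, beside 20.9% and 20.7% of all genes called higher. Smarcc2, which can replace Smarcc1 in the core, was higher in double-KO cells by 1.35 ± 0.18 at 8 h (adjusted p = 5.1e-07) and 1.45 ± 0.18 at 16 h (adjusted p = 1.4e-07). It averaged 19.3 ± 1.92 CPM in double-KO cells and 6.40 ± 0.557 CPM in Kmt2c-KO cells in ethanol at 16 h (SD, n = 3 each). Smarca2, the ATPase that can replace Smarca4, was higher by 1.68 ± 0.23 at 16 h in ethanol (adjusted p = 6.9e-07), at 16.3 ± 4.66 CPM in double-KO cells and 4.31 ± 0.9003 CPM in Kmt2c-KO cells.

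These alternatives stayed minor in sum. Smarcc2 made up 4.82% to 12.1% of Smarcc1 and Smarcc2 tags in the 12 double-KO libraries, against 1.57% to 5.03% in the 18 Kmt2c-KO libraries. Smarca2 made up 10.3% to 18.2% of Smarca4 and Smarca2 tags in the 6 double-KO libraries at 16 h, against 4.05% to 8.20% in the 9 Kmt2c-KO libraries at 16 h. At 8 h the Smarca2 shares overlapped, with 6.29% to 11.03% in double-KO libraries and 7.15% to 11.6% in Kmt2c-KO libraries. Smarca2 shared with Smarcd2 a difference between times that depended on the line, at 2.06 ± 0.32 in ethanol (adjusted p = 0.00014). Between times in Kmt2c-KO cells in ethanol, 2 of the 17 other genes rose and 9 fell by total. Beside them, 27.5% of all genes were called lower, and 2177 of 12414 were called higher. By median of ratios 3 rose and 5 fell. Among the 9 that fell by total were Smarca2 (-2.10 ± 0.23), Actb, which encodes the actin of the complex (-1.07 ± 0.15), Brd9 (-0.52 ± 0.13) and Brd7 (-0.44 ± 0.12). In cells without the transgene 1 rose and 5 fell by total, beside 25.7% of all genes called lower, and 3 rose and 4 fell by median of ratios. In double-KO cells in ethanol 0 rose and 4 fell by total, beside 12.5% of all genes called lower, and 0 rose and 2 fell by median of ratios. With GRHL2-ERT against no transgene at 8 h, Bcl11a alone was lower (-1.10 ± 0.28, adjusted p = 0.021), beside 1.39% of all genes.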

How the data were processed

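Per the labels' protocols, total RNA was made into QuantSeq 3′ FWD libraries and read from a single end. Per the submitters' processing notes, Salmon, DESeq2 1.34.0 and the mm10 build were used, and nothing further on the processing was given in the sources used here. The deposited values were log2 of CPM plus an offset of 0.124871, per the values themselves, with group means that matched the library columns within 4.7e-08. They were returned to CPM, and between 95.4% and 97.6% of low values were whole reads within 0.05 reads. The shortened names of the deposited columns were matched to lines by the treatments that the titles give for each.

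Log2(CPM + 1) was tested in limma 3.58.1 (R 4.3.3), fitting the means of all groups together over 30 libraries, with a variance trend and robust moderation. This left 20 residual degrees of freedom. No count model was run, because the values are log2. Of the genes, 12414 had a group mean of at least 1 CPM and were tested, and 14 were not. A call was a Benjamini-Hochberg adjusted p under 0.05 over all tested genes, two-sided. Of 19 contrasts, 5 were added after the data were seen (the lines in tamoxifen, the times in GRHL2-ERT cells in tamoxifen, and the times between lines). The script was checked on simulated data. Floors cover counting error only.

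Every member was named. Of each other list, called genes with the smallest adjusted p could be named, at most 4 per contrast, and the 5 genes closest in pattern to the most variable member. Members and lists were chosen with earlier results of these data known. Alternatives were pseudocounts of 0.1 and 5, no filter, median-of-ratios scaling, array weights, a replicate block within line and time, the libraries of a contrast alone and leaving out each library. Leaving out the 2 libraries above 6% Rn45s was added after seeing the data. Coordinates are mm10, GENCODE mouse release 21. Promoters are RefSeq, GRCm38.p6.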

Additional observations from a re-analysis of the deposited data

Results flagged for a closer look

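The response of Smarcd1 to tamoxifen at 8 h differed between the lines by a test of the difference itself, at 0.93 on the log2 scale for double-KO minus Kmt2c-KO cells (limma interaction, adjusted p = 0.023). The call was lost with array weights (adjusted p = 0.54), with that contrast alone (0.40), without the libraries rich in Rn45s (0.080), without Kmt2c-KO tamoxifen replicate 2 (0.085) and without double-KO ethanol replicate 2 (0.068). With a replicate block it was lost as well (adjusted p = 0.065).

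The difference of Smarcd2 between 16 h and 8 h in ethanol also differed between the lines by such a test, at 0.85 for double-KO minus Kmt2c-KO cells (limma interaction, adjusted p = 0.027). The call was lost in 7 of the 12 fits that left out 1 library, with adjusted p between 0.056 and 0.073. With a replicate block it was lost as well (adjusted p = 0.080).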

How the results depend on the processing

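Of 47 member results past the threshold, 25 stayed past it under every alternative run, and over 670 pairs of result and alternative 605 kept direction and call, 64 lost the call and 1 reversed. Other reversals were of uncalled values, and no cause was tested.

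For tamoxifen against ethanol in Kmt2c-KO cells at 8 h, 2 members were called, 4 with array weights and 1 to 2 when a library was left out. The Smarcd3 value was -2.44 with a pseudocount of 0.1 and -0.60 with one of 5. In double-KO cells at 8 h, 0 were called, and 0 to 3 when a library was left out (3 without tamoxifen replicate 3). Calls over all genes then ran from 4 to 3146. There Smarca4 turned to -0.12 with array weights and to -0.099 without tamoxifen replicate 2 or without the libraries rich in Rn45s, and Smarcc1 to -0.045 without either. Leaving one out, Smarca4 ran from -0.099 to 0.40 and Smarcc1 from -0.045 to 0.45.

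Between lines in ethanol at 8 h, 2 members were called, 4 by median of ratios, 4 with array weights, 1 when that contrast was fitted alone, and 1 to 3 leaving one out. Smarcb1 turned to -0.13 by median of ratios and ran from -0.046 (without double-KO replicate 1) to 0.40 leaving one out. At 16 h, 5 were called, 1 by median of ratios and 8 with the contrast alone, and 4 to 5 leaving one out. Smarca4 turned to -0.13 and Smarcc1 to -0.20 by median of ratios. Of all 12414 tested genes, 6136 were called between lines in ethanol at 8 h and 6203 at 16 h. Leaving one out, these counts became 4999 to 5956 at 8 h and 5336 to 5466 at 16 h. Under the other alternatives they ranged over 5235 to 6884 at 8 h and 5148 to 8509 at 16 h. In tamoxifen at 8 h Smarca4 turned to -0.033 by median of ratios, -0.13 with array weights and -0.096 without double-KO replicate 2 or the libraries rich in Rn45s, and ran from -0.096 to 0.40 leaving one out. At 16 h Smarcc1 turned to -0.078 and Smarcd1 to -0.0016 by median of ratios.

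For the difference of responses at 8 h, 1 member was called, 2 by median of ratios, 0 with array weights, 0 without the libraries rich in Rn45s, 0 with the contrast alone, and 0 to 5 leaving one out (5 without double-KO tamoxifen replicate 3). Calls over all genes ran from 59 to 3090 leaving one out. For GRHL2-ERT against no transgene at 8 h, 1 was called, 0 with a pseudocount of 5, 4 with array weights, 4 with the contrast alone and 0 to 1 leaving one out, and at 16 h 0, or 1 with array weights. For time in double-KO cells in ethanol, 2 were called, 5 with array weights and 2 to 4 leaving one out.

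Whether replicate numbers pair libraries is not given by the labels. Same-numbered tamoxifen and ethanol libraries had correlations of -0.58 to 0.13 in their deviations from group means. With 3 libraries per group this shows no shared effect but cannot exclude pairing. With a replicate block the Smarcd1 difference of responses was 0.93 (adjusted p = 0.065, 0 members called), Smarcd3 with against without the transgene at 8 h was -1.20 (adjusted p = 0.069, 0 called), and the Smarcd2 time difference between lines 0.85 (adjusted p = 0.080, 0 called). Between lines in tamoxifen at 16 h, 6 members were called in place of 7.

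Counts over all genes varied too, and in some contrasts widely. Those between lines in ethanol are given above. Leaving out a library, 615 calls for tamoxifen in Kmt2c-KO cells at 8 h became 320 to 604, 12 in double-KO cells 4 to 3146, 177 in the difference of responses 59 to 3090, 505 with against without the transgene 295 to 351 at 8 h and 121 at 16 h 61 to 78. For time, 2639 calls in double-KO cells in ethanol became 1488 to 2330, 4435 in tamoxifen 1947 to 5802, and 601 between lines 379 to 606. Under the other alternatives these ranged over 478 to 1116, 0 to 36, 5 to 294, 371 to 1254, 68 to 625, 2106 to 5221, 10 to 4705 and 399 to 2386, in the same order. Tamoxifen at 16 h gave 37 calls in Kmt2c-KO cells (22 to 242 over all alternatives) and 5 in double-KO cells (3 to 206), the difference of responses at 16 h 0 (0 to 18), the change of the response with time 8 (1 to 89), and the lines in tamoxifen at 8 h 5527 (other alternatives 2032 to 5627).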

Other observations

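Other remodeller families were read in the same contrasts. Of 10 ISWI, 14 NuRD and 15 INO80 genes, 0 were called for tamoxifen against ethanol in either line at either time. Of all 12414 tested genes, 5 to 615 were called there. Between 16 h and 8 h in GRHL2-ERT Kmt2c-KO cells in ethanol, 27.5% of all genes were called lower and 2177 of 12414 higher. There 6 ISWI genes fell and 0 rose. Among the falls were Bptf (-1.04 ± 0.10, limma adjusted p = 9.9e-09) and Baz1b (-0.96 ± 0.11), both targeting subunits of ISWI complexes. In NuRD 6 fell and 3 rose, with Chd3 (-2.03 ± 0.17), a remodelling ATPase, and Hdac2 (0.79 ± 0.13), a histone deacetylase, in opposite directions. In INO80 9 fell and 0 rose, among them Ruvbl1 (-0.55 ± 0.10). By median of ratios 5 fell and 1 rose in ISWI, 5 fell and 4 rose in NuRD, and 8 fell and 1 rose in INO80.

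Arid1b made up 22.0% ± 3.47 of Arid1a and Arid1b tags over the 30 libraries (SD, n = 30), with group means between 18.7% and 24.5%.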
